A study of Homo sapiens with 4 samples.

Results

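Chromosome 19 outside its large zinc finger gene clusters was followed through S phase in single cells of 2 lines. The members are the 80 kb bins of chromosome 19 that do not overlap 6 listed intervals of build hg19, from 11.7 to 12.7, 19.8 to 24.3, 36.5 to 38.4, 44.3 to 45.0, 52.3 to 54.0 and 56.0 to 59.1 Mb. They number 434 of the 590 bins of the chromosome and of the 27704 bins of the whole table. Position alone chose them. The cells come from 1 S-phase library of the human colorectal cancer line HCT116 and 1 of its derivative DKO1, which lacks intact DNMT1 and DNMT3B, both genes of DNA methyltransferases. DKO1 was grown from a single clone, so genotype and clone cannot be told apart. Both lines were grown in the same serum-supplemented medium, stained live for DNA content and sorted, and the early, mid and late fractions of S phase were mixed in equal numbers before droplet copy-number sequencing.

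A chromosome replicates as a series of domains that start at different times, and the DNA of a replicated domain is present in more copies than that of an unreplicated one. Early domains are as a rule rich in genes and open chromatin, and late domains are gene-poor, heterochromatic or lie at the nuclear periphery. Chromosome 19 is known as the most gene-dense human chromosome, with clusters of KRAB zinc finger genes, many of them under heterochromatin, set between long gene-rich stretches. DNMT1 copies DNA methylation onto new strands after replication, and DNMT3B adds methylation to unmethylated sites.

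Each cell has 1 state code per bin. Code 2 was read as replicated, code 1 as unreplicated and code 0 as not called, since the table does not define them. The reading rests on the other 20 chromosomes with at least 100 used bins, where the share of code 2 followed the number of protein-coding genes per bin (rank correlation over these chromosomes, Spearman's rho, 0.803 for HCT116 and 0.860 for DKO1). Chromosome 19 itself was left out of it. Genes were counted over each whole chromosome in GRCh38.p14, but bins only where used. The density of partly covered chromosomes, such as chromosome 22 with 163 used bins, is therefore overstated. The S-phase progress of a cell was measured on the other autosomes, as the replicated percent of the bins called there. It ran from 16.6 to 77.5% over 322 HCT116 cells (median 52.3%) and from 9.21 to 78.1% over 207 DKO1 cells (median 48.3%), and the lines shared 0 cell barcodes. A standardised share is the percent of cells with a bin replicated, averaged with equal weight over the 6 strata of 10 points of progress from 20 to 80%, so that the lines are set side by side at matched progress. These strata held 318 HCT116 and 206 DKO1 cells. Each line is 1 library, so cells are not replicates, no test was made between the lines, and the exact binomial (Clopper-Pearson) intervals below cover the counting of cells only. The read depth per cell is unknown.

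Of the 434 members, 426 (34.1 Mb) had a call in 90% or more of the cells in each line and were used. The other 8 lie beside the centromere between 24400001 and 28240000. The table starts on this chromosome at 4560001 and has no bins from 6960001 to 9040000, over the centromere from 24560001 to 27760000, or from 54960001 to 56000000. The outermost short arm and those stretches were therefore not analysed here.

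Most of the chromosome outside the zinc finger clusters replicated early in S phase in both lines. Averaged over the 426 bins, the standardised share was 81.2% for HCT116 and 83.6% for DKO1, and the median bin stood at 96.6 and 96.2%. With its zinc finger intervals left out, the chromosome had the highest mean of the 21 chromosomes in both lines. With them included (582 bins) it was 68.3 and 72.8%, the third highest. The share exceeded 95% in 238 bins of HCT116 (55.9%), against 13.1% of all used autosomal bins. It lay under 33.3% in 50 bins (11.7%), against 38.7%. Timing along the chromosome was thus a high plateau cut by a few late stretches. In windows of 1 Mb with at least 6 used bins, 22 of 36 were over 90% in both lines.

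The 5 earliest windows of HCT116 lay on both arms. The window of the bins starting between 47 and 48 Mb was first, at 99.5% in HCT116 and 99.2% in DKO1. It was followed by the windows at 49 Mb (99.4 and 99.5%), 45 Mb (99.2 and 98.98%), 11 Mb (99.1 and 98.8%) and 50 Mb (98.9 and 97.0%). Their order says little, since 24 of the 36 windows differed by at most 3 points between the lines and the leading windows lay within 1 point of each other. Of these 5, DKO1 had 2 among its own 5 earliest. The 5 latest windows were the same in both lines and all lay next to the centromere on the long arm. They were the windows at 31 Mb (3.22% in HCT116 and 8.12% in DKO1), 28 Mb (6.14 and 13.8%), 29 Mb (15.3 and 19.6%), 32 Mb (31.9 and 33.8%) and 30 Mb (44.8 and 39.6%).

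**Figure D1:**
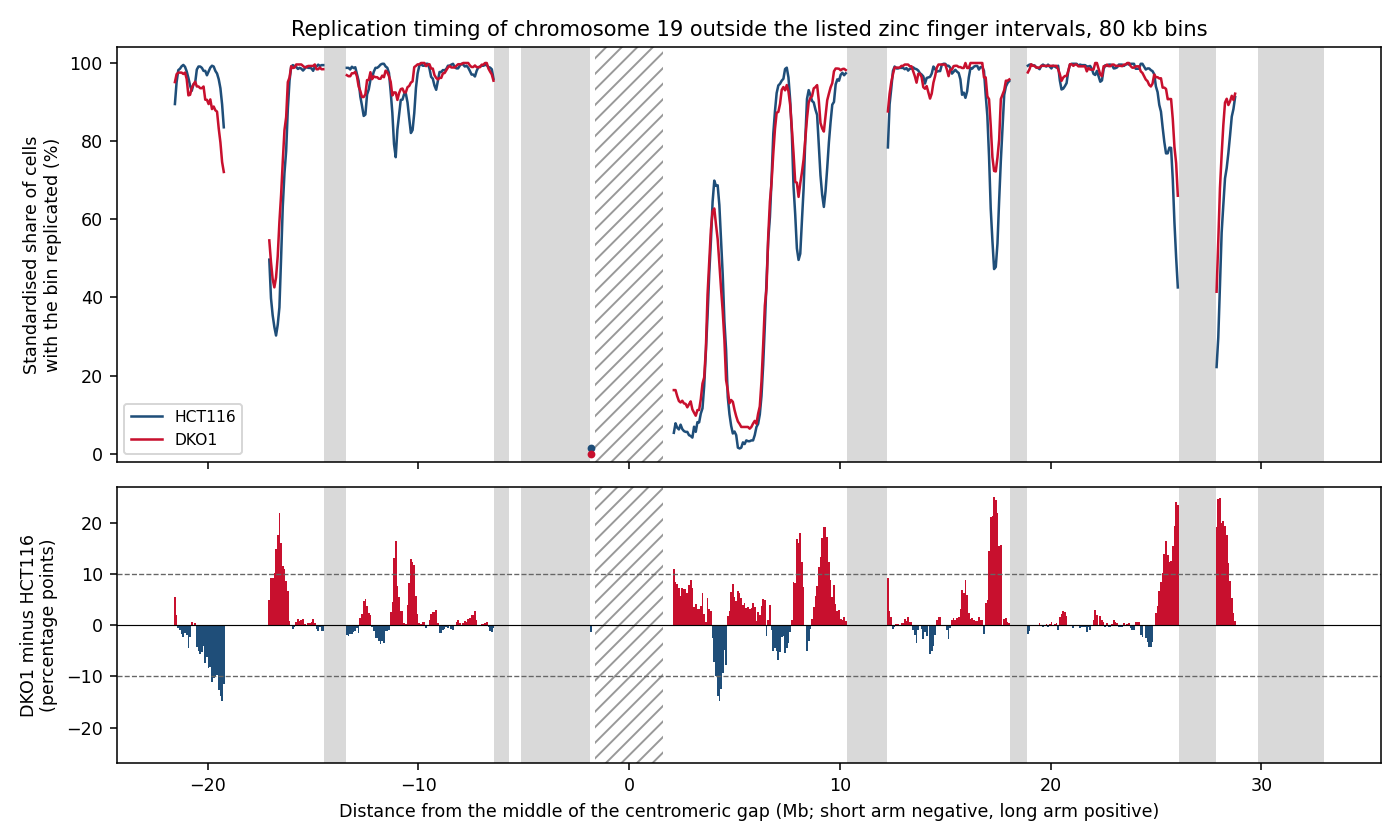
Standardised share of cells with each 80 kb bin replicated (upper panel, percent) and the difference of DKO1 minus HCT116 (lower panel, percentage points), against the distance from the middle of the centromeric gap in Mb. Grey bands are the listed zinc finger intervals, the hatched band is the gap without bins, and dashed lines mark 10 points. Most of the curve sits above 90%, and most bars past 10 points stand in the narrow late stretches.

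The listed intervals and the centromere cut the members into 7 segments. On the short arm, the segment from 4560001 to 11680000 had a mean share of 88.5% in HCT116 and 88.3% in DKO1, and the segment from 12720001 to 19760000 had 95.7 and 97.0%. A single used bin from 24320001 to 24400000 remained between the pericentromeric zinc finger interval and the centromere, at 1.35 and 0%. On the long arm, the segment from 28240001 to 36480000 was by far the latest of the longer ones, with 47.3 and 50.6%. The segment from 38400001 to 44240000 had 92.6 and 95.6%, and that from 45040001 to 52240000 had 94.99 and 96.99%. The short segment from 54000001 to 54960000, cut off by the stretch without bins, had 65.3 and 79.9%. At 40 to 60% progress most bins of the segment from 45040001 to 52240000 were replicated in all 136 HCT116 and all 101 called DKO1 cells. For the segment from 28240001 to 36480000 this held in 64 of 136 cells from HCT116 (47.1%, interval 38.4 to 55.8%) against 53 of 101 from DKO1 (52.5%, 42.3 to 62.5%).

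No annotation of build hg19 was used, so genes were not placed in bins. The order of genes in the RefSeq table of GRCh38.p14 gives only which genes stand between the zinc finger blocks. Between ZNF791 and ZNF101, the genes that bound the second segment, stand 204 protein-coding genes, or 29.0 per Mb of that segment. Between ZNF573 and ZNF283 stand 164 (28.1 per Mb), among them 6 CYP2 genes for drug-metabolising enzymes, 8 CEACAM adhesion genes and 10 PSG genes for pregnancy-specific glycoproteins. Between ZNF180 and ZNF577 stand 260 (36.1 per Mb), among them the apolipoprotein genes APOE and APOC1, 15 KLK genes for kallikrein proteases and 10 SIGLEC genes for sialic acid receptors. Between ZNF254 and ZNF565, across the centromere, stand 100 (12.1 per Mb of the long-arm part). Genes named ZNF stand in these segments too, outside the listed intervals. In the order given they number 1, 8, 5 and 7. The 3 denser segments had shares over 92% in HCT116 and the sparsest 47.3%. Segment lengths come from hg19 and gene counts from GRCh38.p14, and the bounding genes were matched to the intervals by their order.

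A total of 7 stretches departed from the early plateau in HCT116. They are runs of at least 3 bins under 80%, a limit chosen after the values were seen, and they hold 109 of the 113 bins under 80%. The longest, of 4.72 Mb, lay beside the centromere from 28240001 to 32960000, with a mean share of 20.3% in HCT116 and 22.8% in DKO1. The others were 0.56 to 0.88 Mb long and less late. That from 9040001 to 9920000, the only one on the short arm, borders the stretch without bins and had 47.4 and 59.6%. Those from 33920001 to 34480000 (58.7 and 71.2%), 35120001 to 35680000 (71.4 and 87.1%) and 43200001 to 43840000 (60.3 and 80.3%) were narrow notches with early bins on both sides. Those from 51520001 to 52240000 (68.0 and 84.9%) and 54000001 to 54640000 (54.5 and 74.3%) are the 2 flanks of a zinc finger interval. All 7 means were higher in DKO1. Low HCT116 values alone chose these stretches, which favours a higher DKO1 mean, and bins low only in DKO1 could not enter. The number of member bins with a share under 50% was 64 in HCT116 and 57 in DKO1, and under 80% it was 113 and 91.

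The late stretch beside the centromere held 3 parts. In the 17 bins from 28240001 to 29600000 HCT116 had a mean share of 6.41% against 12.9% for DKO1, and in the 18 bins from 30880001 to 32320000 it was 4.36 and 8.78%. The bounds of these troughs were chosen after the values were seen. Between them stood a narrow peak, whose highest bin in both lines ran from 30160001 to 30240000 and had 69.9% in HCT116 and 62.8% in DKO1. In gene order, the first genes of this arm are UQCRFS1, a subunit of the mitochondrial respiratory chain, then VSTM2B, POP4, PLEKHF1, C19orf12, CCNE1, the gene of cyclin E1 that drives entry into S phase, URI1, ZNF536, TSHZ3 and ZNF507. From there to CEBPA the table lists few genes, 24 in all after ZNF254. The latest bin of all members in HCT116, from 31360001 to 31440000, had a share of 1.34% against 7.62% in DKO1.

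Cells filled this stretch slowly. Of its 59 bins, the median HCT116 cell had 58 unreplicated at 20 to 30% progress (34 cells, lowest 52, highest 59), 51 at 40 to 50% (58 cells, 35 to 59) and 35 at 70 to 80% (18 cells, 15 to 47). The median DKO1 cell had 57 (13 cells, 40 to 59), 51 (53 cells, 9 to 59) and 39 (10 cells, 0 to 49). The lowest count was smaller in DKO1 in these strata and at 30 to 40% (32 against 47), and larger at 50 to 60% (27 against 19) and 60 to 70% (19 against 6). The medians of the lines lay within 4 bins of each other in all 6 strata. The peak bin was replicated in 25 of 49 cells from HCT116 against 12 of 43 from DKO1 at 30 to 40% progress, and in 67 of 78 and 33 of 49 cells at 50 to 60%. The trough next to the centromere was higher in DKO1 in 6 of 6 strata, and the peak bin in 1 of 6. At 70 to 80% progress that trough was replicated in 22.9% of HCT116 and 40.6% of DKO1 calls, over 18 and 10 cells. The DKO1 cells at 70.7, 74.3 and 78.1% progress had 97.7 to 99.8% of all members replicated. In HCT116 the highest was 96.2%.

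**Figure D2:**
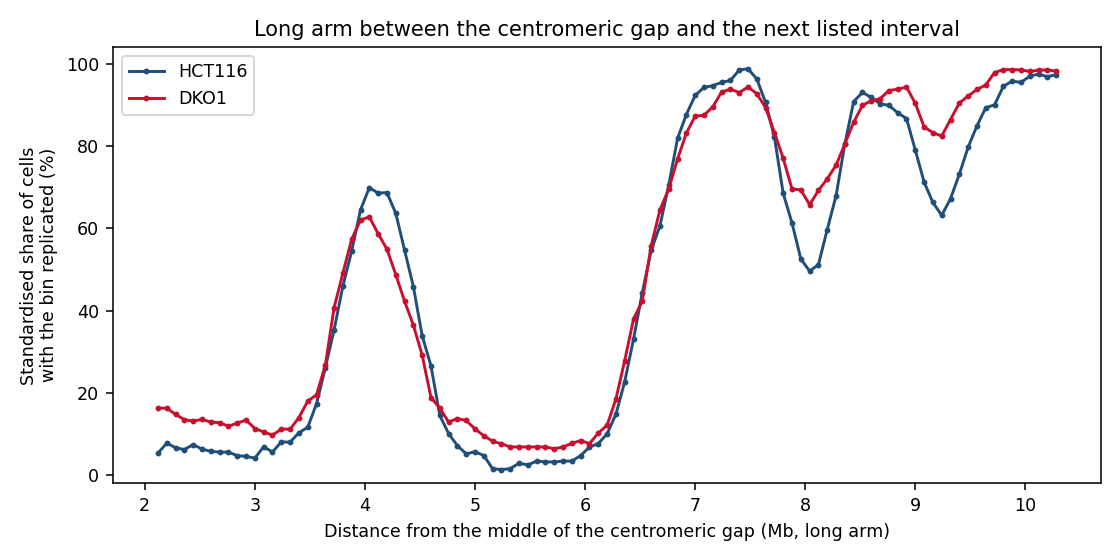
Standardised share of cells with each bin replicated (percent) from the centromere to the next listed interval on the long arm, against distance from the middle of the centromeric gap in Mb, with 1 point per 80 kb bin. In DKO1 both troughs lie higher and the peak between them lower than in HCT116, and the 2 notches to the right are shallower.

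The chromosome ran ahead of the rest of the genome in nearly every cell. At 20 to 30% progress the percent of the 426 bins already replicated had a median of 67.6% in HCT116 (34 cells, lowest 42.3%, highest 73.7%) and 75.8% in DKO1 (13 cells, 64.6 to 82.2%). Median progress in this stratum was 25.9% in HCT116 and 28.0% in DKO1, an offset in the direction of the difference. At 30 to 40% it was 75.6% in HCT116 (49 cells, 60.1 to 82.9%) and 79.3% in DKO1 (43 cells, 49.1 to 89.9%), with median progress of 34.5 and 36.8%. At 40 to 50% it was 81.5% (58 cells, 66.7 to 89.2%) and 83.6% (53 cells, 66.0 to 96.4%), here with lower progress in DKO1 (44.2 against 45.6%). The lines then met, with 85.8% (78 cells, 77.7 to 93.4%) and 86.4% (49 cells, 55.98 to 91.8%) at 50 to 60%, 88.9% (81 cells, 0 to 94.1%) and 89.4% (38 cells, 63.8 to 95.3%) at 60 to 70%, and 91.5% (18 cells, 85.2 to 96.2%) and 90.4% (10 cells, 87.8 to 99.8%) at 70 to 80%. The ranges of the lines overlapped in every stratum. The zinc finger intervals of the same cells started at a median of 14.1% in HCT116 and 24.4% in DKO1 and reached 51.9 and 65.4% in the last stratum.

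Bins replicated in every called cell of a stratum numbered 80 of 426 in HCT116 and 172 in DKO1 at 20 to 30% progress, 107 and 68 at 30 to 40%, 210 and 115 at 40 to 50%, and 210 and 192 at 50 to 60%. At 60 to 70% they numbered 0 and 238, where 1 HCT116 cell had no member replicated, and at 70 to 80% 343 and 348. These counts also depend on the number of cells, which differs between the lines, and they had no constant order. Bins still unreplicated in most called cells at 70 to 80% numbered 40 in HCT116 and 36 in DKO1.

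**Figure D3:**
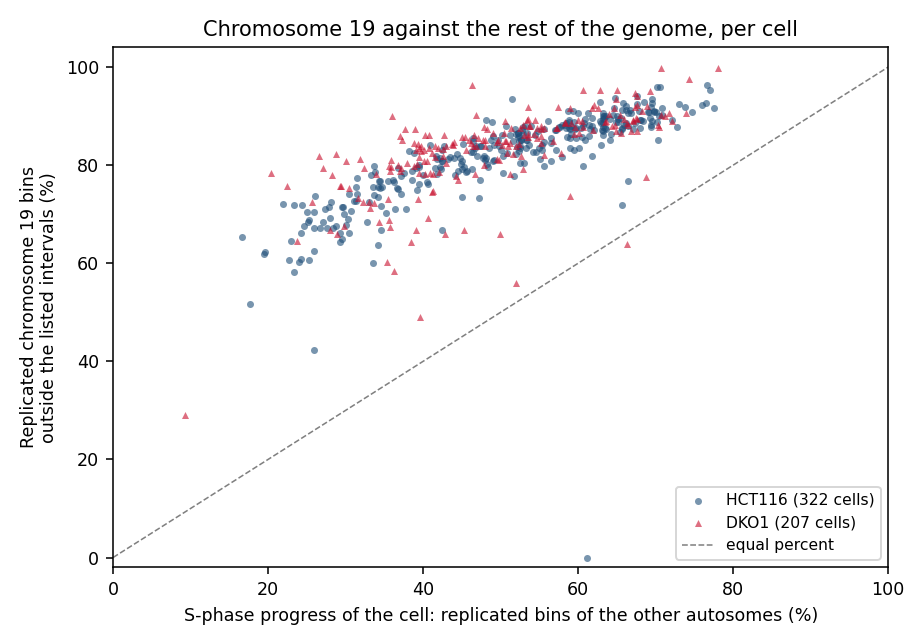
Percent of the used chromosome 19 bins outside the listed intervals that were replicated in each cell, against the S-phase progress of the cell on the other autosomes (percent), with 1 point per cell. The dashed line marks equal percent. All but 1 cell of each line lie above the dashed line: the HCT116 cell stands at 0% and the DKO1 cell at 63.8%, and the clouds of the lines overlap.

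The comparison of the lines asked whether loss of the methyltransferases moves the order in which this chromosome replicates. The mean over the 426 bins was 2.38 points higher in DKO1 (median bin 0.68 points higher), and from 1.26 to 4.06 points higher under the other settings tried. The lines were farthest apart at 20 to 30% progress, with cell means of 66.7% in HCT116 and 74.2% in DKO1. That stratum held 13 DKO1 cells, which were further on in progress. In the later strata the means were 74.6 and 76.8%, 81.2 and 81.9%, 85.5 and 85.4%, 87.5 and 89.3%, and 91.6 and 92.3%. The HCT116 mean of 87.5% includes the cell at 0%. The differences were larger in the bins of intermediate timing. In the 57 bins whose mean share over both lines lay between 20 and 80%, a band chosen after the values were seen, it was 52.6% in HCT116 and 61.9% in DKO1, 9.29 points higher, with 44 bins higher and 13 lower. In the same band of the other autosomes, 12300 bins, it was 51.4 and 49.8%, a difference of -1.67 points. Cells were matched on those autosomes, which keeps their mean difference small (-0.14 points over 26560 bins), while chromosome 19 was left out of the matching. With progress from all autosomes the band differed by 9.49 points in the members and -1.79 points on the other autosomes. In the 40 members between 80 and 90% the shares were 82.5 and 89.6%, 7.08 points higher in DKO1, against -4.65 points on the other autosomes. In the 20 to 80% band, among the 21 chromosomes, the value for chromosome 19 outside the intervals was the highest, followed by chromosomes 21 (7.30 points) and 22 (5.54 points). The 57 bins lie in a few adjoining stretches and are not independent of each other. Without the bins within 0.5 Mb of a listed interval, the difference was 7.04 points over 48 bins, which is below the value of chromosome 21, so that the first place depended on those bins.

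**Figure D4:**
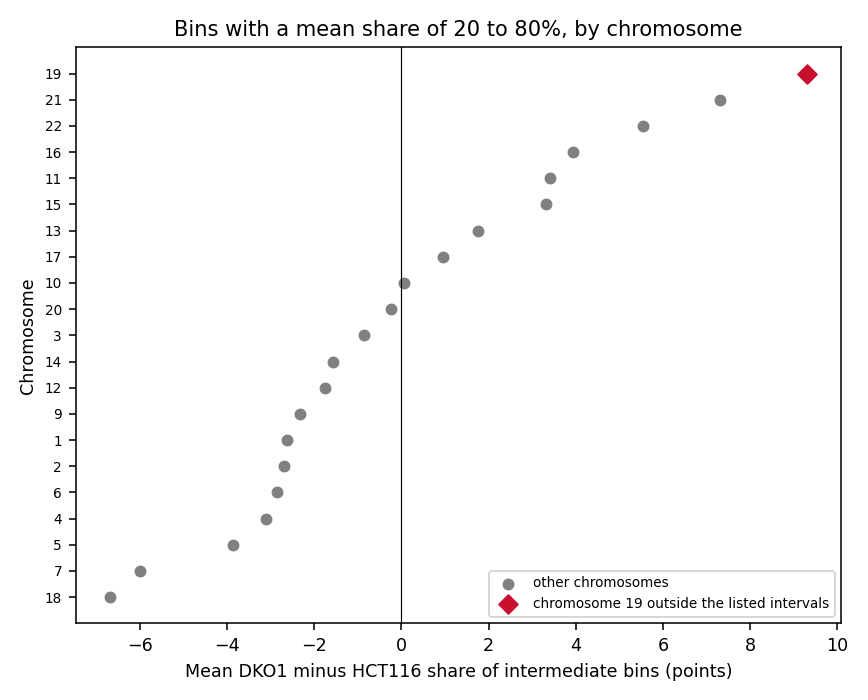
Mean difference in standardised share, DKO1 minus HCT116 in percentage points, over bins with a mean share of 20 to 80%, for 21 chromosomes with at least 100 used bins, with 1 point per chromosome. Chromosome 19 outside the listed intervals stands at 9.29 points and chromosome 18 is lowest at -6.67 points.

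In the 288 members with a mean share of at least 90%, the lines had 97.31 and 97.30%, a mean difference of -0.012 points. Of these bins 151 were higher and 137 lower in DKO1, and 232 differed by at most 3 points. The exceptions included 8 adjoining bins from 6000001 to 6640000, with 98.1 and 89.2%, which were lower in DKO1 by 6.28 points at the least (-6.28) and 11.1 points at the most (-11.1). The 4271 such bins of the other autosomes had 96.6 and 94.6%, a difference of -2.05 points. Among the 41 members under 20% the shares were 6.27 and 11.2%, a difference of 4.98 points, close to the 5.07 points of the other autosomes (7.20 and 12.3%, 7410 bins). These comparisons between parts of the genome were not tested.

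By a limit of 15 points, 30 of the 426 bins (7.04%) were higher in DKO1, against 7.11% of all 27142 used autosomal bins, and 0 were lower, against 7.29%. The members' share of higher bins was at the background and that of lower bins under it. By 10 points, 50 bins (11.7%) were higher, against 14.8% of all used bins, and 10 bins (2.35%) were lower, against 14.8%. In 303 members (71.1%) the HCT116 share exceeded 85%, which leaves no room for a difference of 15 points upward. In 24.6% of all used bins it did. The count of 0 lower bins depended on the setting and reached 9 with code 0 read as unreplicated.

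In all, 7 regions were higher in DKO1 by at least 10 points in each of 3 or more consecutive bins, and 3 were lower. The 7 cover 47 of the 50 bins past that limit (3.76 Mb). Those 50 bins are 11.7% of the members, against 14.8% of all used autosomal bins, and bins lower by 10 points are 2.35 against 14.8%. Such runs were not called on the other autosomes, so the number of regions has no background. All these regions, higher and lower, were chosen by this difference. Their values, cell counts and intervals are therefore a description and no test. Progress in the 40 to 60% band used for the cell counts had a median of 51.8% in HCT116 and 49.7% in DKO1, so that HCT116 cells were slightly further on.

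The region with the largest summed difference ran from 51440001 to 52240000, up to the zinc finger interval that starts at 52.3 Mb. The region had a mean share of 69.6% in HCT116 and 85.8% in DKO1, 16.2 points higher. Its last 4 bins were successively lower toward the interval, down to 42.6 and 66.0%. At 40 to 60% progress most of it was replicated in 115 of 136 cells from HCT116 (84.6%, interval 77.4 to 90.2%). In DKO1 this held in 96 of 101 (95.05%, 88.8 to 98.4%). At 20 to 30% progress 20% of HCT116 and 62.3% of DKO1 calls were replicated. DKO1 was higher in 6 of 6 strata. In gene order the last genes before ZNF577, taken by order as the first of that zinc finger block, are SIGLEC14, SPACA6, HAS1, FPR1, FPR2 and FPR3. HAS1 is a hyaluronan synthase, and the FPR genes encode formyl peptide receptors of innate immune cells. Which of them lie in the region, and which in the bins left out beside it, is unknown.

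The notch from 43200001 to 43840000 had 60.3% in HCT116 and 80.3% in DKO1, 20.02 points higher, the largest mean of the 10 regions. Its bins differed by 14.6 to 25.1 points. The lowest HCT116 bin, from 43440001 to 43520000, had 47.3% against 72.4% in DKO1, whose own lowest bin was the next one at 72.2%, so the notch lay at nearly the same place in both lines and was shallower in DKO1. The greater part was replicated in 90 of 136 cells from HCT116 (66.2%, 57.6 to 74.1%). In DKO1 this held in 86 of 101 (85.1%, 76.7 to 91.4%). At 30 to 40% progress 21.9% of HCT116 and 65.5% of DKO1 calls were replicated. At 70 to 80% the values were 99.3 and 97.5%, the only stratum in which DKO1 was lower. In gene order the PSG genes, expressed mainly in the placenta, stand near the end of this segment, with 18 protein-coding genes between the last of them and ZNF283.

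The other flank of the same zinc finger interval, from 54000001 to 54640000, had 54.5% in HCT116 and 74.3% in DKO1, 19.8 points higher. Its first bin, next to the interval, had 22.2 and 41.5%, and the share climbed away from the interval to 76.98% in HCT116 and 90.8% in DKO1 at the most. Most of it was replicated in 80 of 136 cells from HCT116 (58.8%, 50.1 to 67.2%). In DKO1 this held in 80 of 102 (78.4%, 69.2 to 86.0%). DKO1 was higher in 5 of 6 strata. Directly after the zinc finger gene ZNF331, the gene order lists 50 microRNA genes and 1 protein-coding gene, DPRX, before NLRP12. ZNF331 was matched to the end of that zinc finger block by order only. It may itself lie in this region, since genes were not placed in bins. These microRNAs include the large primate cluster that is known to be expressed from the paternal allele in placenta and to carry DNA methylation at its promoter.

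A pair of notches followed each other on the long arm. That from 34080001 to 34400000 had 53.3% in HCT116 and 69.1% in DKO1, 15.8 points higher. Most of it was replicated in 68 of 136 (50%, 41.3 to 58.7%) and 73 of 101 cells (72.3%, 62.5 to 80.7%). That from 35120001 to 35680000 had 71.4 and 87.1%, 15.7 points higher. The greater part was replicated in 117 of 136 (86.0%, 79.0 to 91.4%) and 92 of 101 cells (91.1%, 83.8 to 95.8%). The early bins around them differed less and in both directions. Between the notches the differences ran from -4.99 to 7.63 points. On the centromere side, the bin from 33600001 to 33680000 had 98.8% in HCT116 against 94.4% in DKO1 (difference -4.45 points).

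On the short arm, the region from 9280001 to 9840000 had 45.5% in HCT116 and 60.2% in DKO1, 14.7 points higher. Most of it was replicated in 43 of 136 (31.6%, 23.9 to 40.1%) and 48 of 97 cells (49.5%, 39.2 to 59.8%). DKO1 was higher in 6 of 6 strata. The shortest region, of 3 bins from 15760001 to 16000000, had 84.0 and 96.4%, 12.4 points higher. In cells with at most 1% of bins uncalled it was 2.48 points. That setting kept 203 HCT116 and 77 DKO1 cells and only the strata from 30 to 70% progress. With these strata and all cells it was 6.06 points. Most of this region was replicated in 94.85% of HCT116 and 95.05% of DKO1 cells at 40 to 60% progress.

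**Figure D5:**
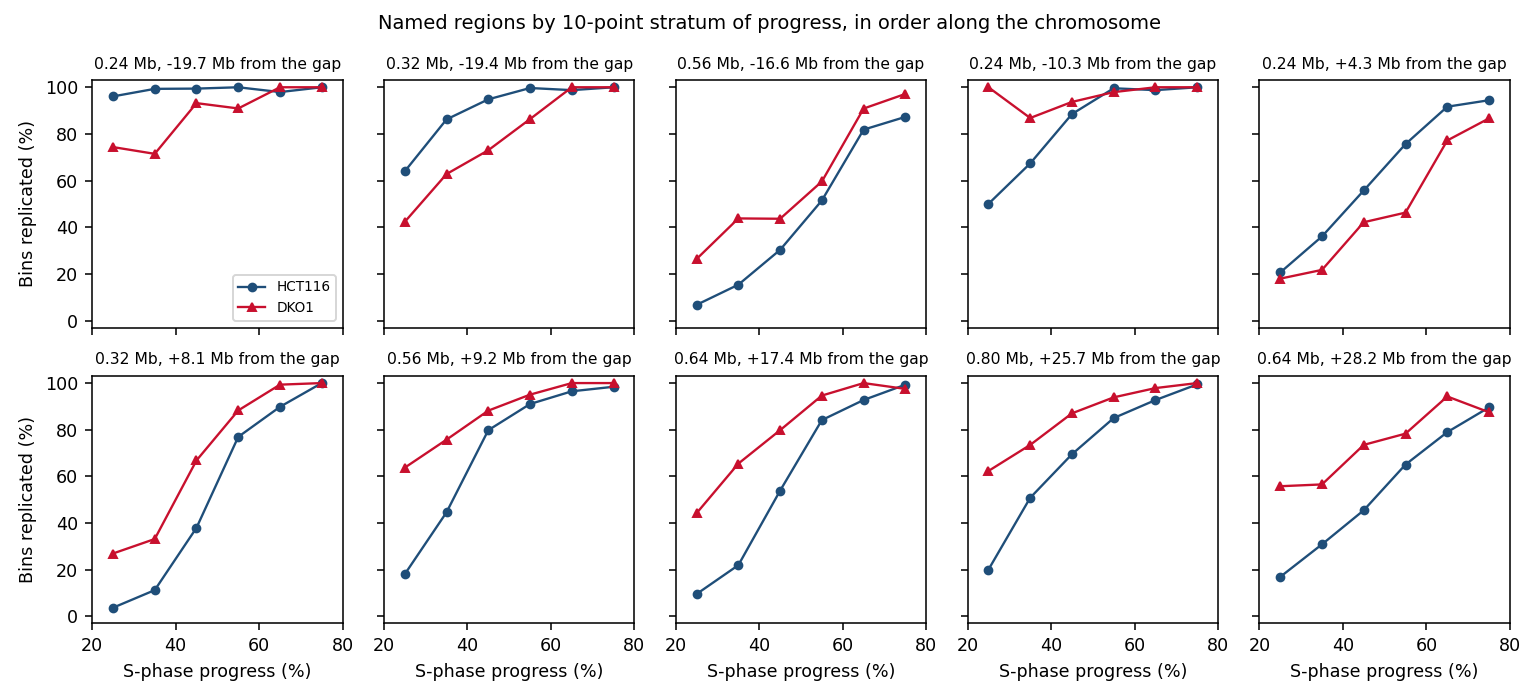
Percent of calls replicated in the 10 named regions, in order along the chromosome, by 10-point stratum of S-phase progress, with 1 point per stratum and line. Panel titles give the length and the distance from the middle of the centromeric gap. In 7 panels the DKO1 curve starts higher, most widely below 50% progress, and in 3 panels (-19.7, -19.4 and 4.3 Mb) it runs lower over most of S phase.

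The other 3 regions were lower in DKO1. From 6640001 to 6960000, at the edge of the stretch without bins, 90.6% of HCT116 and 77.4% of DKO1 cells were replicated, a difference of -13.2 points. The difference was -14.7 points in cells with at most 1% of bins uncalled and -18.8 points with code 0 read as unreplicated. Most of this region was replicated in 132 of 136 cells from HCT116 (97.1%, 92.6 to 99.2%). In DKO1 this held in 72 of 94 (76.6%, 66.7 to 84.7%). The neighbouring region from 6320001 to 6560000 had 98.8 and 88.3%, a difference of -10.5 points. This was -6.24 points in cells with at most 1% of bins uncalled and -16.96 points with code 0 read as unreplicated. The cells with few uncalled bins filled only the strata from 30 to 70% progress. With these strata and all cells the differences were -14.3 points in the first region and -10.3 points in its neighbour. Over both and the bin between them, past 40% progress, most bins were still unreplicated in 1 of 235 cells from HCT116 (0.426%, 0.0108 to 2.35%) against 7 of 140 from DKO1 (5%, 2.03 to 10.0%). In 6 of those 7 DKO1 cells, and not in the HCT116 cell, the bins nearer the telomere, below 6 Mb, were mostly replicated. The same arm held more uncalled bins in DKO1: code 0 took 6.26% of DKO1 and 0.0444% of HCT116 calls in the segment from 4560001 to 11680000, and its part in the difference was not tested.

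The third region lower in DKO1, from 30320001 to 30560000, is the far shoulder of the peak beside the centromere. HCT116 had a share of 62.4% there against 48.7% in DKO1 (difference -13.7 points), and it was lower in DKO1 in 6 of 6 strata. Most of it was replicated in 94 of 136 cells from HCT116 (69.1%, 60.6 to 76.8%). In DKO1 this held in 47 of 102 (46.1%, 36.2 to 56.2%). On the near side of the peak the lines were closer, and the curves parted on the side away from the centromere.

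The zinc finger intervals differed more than the chromosome around them. Over their 156 used bins the mean share was 32.99% in HCT116 and 43.5% in DKO1, 10.5 points higher, against 2.38 points outside. By 15 points 53 bins (34.0%) were higher, against 7.04% outside. In the intermediate band the values came closer, 16.5 points over 61 bins inside and 9.29 points over 57 bins outside. The difference between the 2 parts was not tested. The members are not free of zinc finger genes, since genes named ZNF also stand outside the intervals, and these were not set apart.

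Pairwise comparisons of cells at matched progress (both cells between 40 and 60%, at most 5 points apart) differed in 7.12% of the members in HCT116 (136 cells, 4069 pairs) and 9.25% in DKO1 (102 cells, 2213 pairs), a ratio of 1.299. On the other autosomes they differed in 17.2 and 23.2%, a ratio of 1.35. These values depend on the mix of bins, since 328 of the 426 members have a mean share of at least 80%. In members of at least 80% mean share the values were 2.39 and 4.54%, and in members under 20% they were 5.18 and 8.70%. In the 57 intermediate members they were 35.7% in HCT116 and 35.4% in DKO1, and in the same band of the other autosomes 31.3 and 37.6%. Without cells whose chromosome 19 was outlying, the overall values were 7.12 and 8.19%.

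The replication width is the span of progress over which a fitted logistic curve goes from 25 to 75% replicated. For the members it was 14.5 points (HCT116) and 16.7 points (DKO1), and for the other autosomes 15.7 and 19.9 points. Width too depends on the mix of bins, so members and other autosomes are not directly comparable. A mean share of at least 80% was held by 328 of 426 members and by 6850 of 26560 bins of the other autosomes. The members' gap of 2.17 points was not stable. It was 0.0924 points with strata from 30 to 70% progress, and -0.38 points in cells with at most 1% of bins uncalled, which filled only those strata. The median number of changes of state along the members of a mid-S cell was 10.5 in HCT116 (quartiles at 7 and 12.25, range 1 to 26). It was 7 in DKO1 (quartiles at 5 and 10, range 1 to 24).

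Late bins called replicated out of order were more frequent in DKO1, through a few cells, by limits chosen after the values were seen. In cells under 50% progress, the 41 members under 20% in both lines were on average replicated in 0.370% of bins per HCT116 cell (145 cells, highest 26.8%) and 3.23% in DKO1 (110 cells, highest 90.2%), with a median of 0 in both. More than 10% of them were replicated in 1 HCT116 cell (0.690%, interval 0.0175 to 3.78%) and 9 DKO1 cells (8.18%, 3.81 to 14.96%). The DKO1 cells under 50% were further on, with a median progress of 39.6% against 36.8%. With equal weight for the 3 strata from 20 to 50% progress the means were 0.333% in HCT116 and 2.83% in DKO1. DKO1 was higher in each of these strata. The measure was not repeated without outlying cells or cells with many uncalled bins, so miscalled cells cannot be told apart. In cells past 50% progress, the 208 members over 95% in both lines were on average unreplicated in 1.05% of bins per HCT116 cell (177 cells, highest 100%) and 0.812% in DKO1 (97 cells, highest 34.6%), and 5 and 2 cells were over 10%. Without the HCT116 cell at 100% its mean was 0.489%, so that 1 cell set the direction.

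A few cells had a chromosome 19 that did not follow their progress. Its replicated share lay more than 15 points from the straight line of share on progress in 3 of 322 cells from HCT116 (0.932%, interval 0.193 to 2.70%) against 12 of 207 from DKO1 (5.80%, 3.03 to 9.91%). All 3 HCT116 cells and 9 of the 12 DKO1 cells lay below the line. The farthest was an HCT116 cell at 61.1% progress in which 0% of the chromosome was called replicated. The mean difference of the members without these cells was 2.49 points, and that of the named regions kept its sign in all 10.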

How the data were processed

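Per the labels' protocols, S-phase cells were sorted by DNA content, pooled and loaded on the 10x single-cell copy-number system. Builds hg19 and GRCh37 are named, with bedtools 2.26.0, SAMtools 1.10 and Cell Ranger, per the submitters' processing notes. The authors deposited 1 score per 80 kb bin and cell, a state code of 0, 1 or 2, which by the table's name was binarised with an HMM (hidden Markov model). Its software and filters: not given in the sources used here. The depth per cell is unknown. G1 libraries were not analysed here. No doublet caller was run.

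Python 3.11.15 with NumPy 2.4.6, pandas 2.3.3 and SciPy 1.17.1 computed shares, exact binomial intervals, pair discordance and logistic widths, with bin time on the 20 to 80% scale of the strata. Strata needed at least 5 cells of each line. The functions were tested on simulated data. Named regions are all segments, the 5 earliest and 5 latest windows of 1 Mb, and stretches of 3 or more consecutive bins (1 missing bin allowed) that differ by at least 10 points, up to 8 per direction. Members, lists and alternatives were chosen with earlier results of these data known.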

Additional observations from a re-analysis of the deposited data

Results flagged for a closer look

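Code 0, which the comparisons leave out, took a larger share of calls in DKO1 than in HCT116, the control line. Over all used members it took 1.99% of DKO1 calls and 0.0525% of HCT116 calls. On the short-arm segment from 4560001 to 11680000 it took 6.26 and 0.0444%. There, over 50% of the bins were uncalled in 13 of 207 DKO1 cells (6.28%, 95% interval from 3.39 to 10.5%). This was seen in 0 of 322 HCT116 cells (upper bound 1.14%). On the other members it took 1.25 and 0.0539%. On the other autosomes it took 2.42 and 0.809%.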

How the results depend on the processing

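A set of 10 alternatives was run for the mean difference, width, discordance, segments and named regions, and 12 for the bin counts. Late stretches, troughs, strata and switches had none. The setting of low code 0 (cells with at most 1% of bins uncalled) kept 203 HCT116 and 77 DKO1 cells and only the strata from 30 to 70% progress. The mean difference (2.38 points) stayed positive, from 1.26 with low code 0 to 4.06 at 99% called. All 7 higher and 3 lower regions kept their sign wherever bins remained (at 99% called, 4 of the 10, and 3 of the 7 segments, had no bins), and the members' intermediate band stayed between 7.04 and 12.0 points. Bins higher by 15 points were 30, and 19 in cells with at most 1% of bins uncalled, 18 without bins within 0.5 Mb of an interval, 50 at 10 points and 11 at 20 points. Bins lower by 15 points were 0, but 2 with progress from all autosomes, with strata of 5 points or without outlying cells, 4 without matching or with low code 0, 5 with strata from 30 to 70%, 9 with code 0 as unreplicated and 10 at 10 points. The gap in width of 2.17 points was 1.37 with strata of 5 points, 0.0924 with strata from 30 to 70%, 5.67 with code 0 as unreplicated and -0.38 with low code 0. The gap in pair discordance of 2.13 points was 3.98 with code 0 as unreplicated and 1.07 without outlying cells. The segment from 4560001 to 11680000 turned to 0.23 points without outlying cells, and that from 12720001 to 19760000 to -0.65 points with strata from 30 to 70% and -1.13 with low code 0. The segment from 54000001 to 54960000 (14.7 points) had 27.2 points at 99% called and 5.89 points without interval edges, both over 5 bins, and that from 45040001 to 52240000 had 17.4 points over 10 bins at 99% called. The difference in early bins left unreplicated past 50% progress, -0.24 points, was 0.32 without 1 HCT116 cell, a setting chosen after seeing the data. The cause was not tested, except that stricter settings use fewer cells or bins: at 99% called, 190 members remained. No paired analysis was possible because each line is 1 library. The unknown read depth limits every call.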
